A study of Homo sapiens with 12 samples.

Results

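The Hippo pathway and the target genes of YAP and TAZ were examined as a set of 34 genes, chosen by name from what is known of the pathway: 2 effectors, 5 genes of the TEAD partners, 7 genes of the core kinase module, 4 upstream regulators, 6 adaptor genes and 10 target genes. The choice was made with earlier results of these data known. Each of the 34 was found as 1 row among the 57187 genes of the count table, and all 34 were among the 17211 genes that passed the filter on low counts. RNA-seq libraries were made from 4 lines of human cancer cells, the breast lines MDA-MB-231 and HCC1954 and the ovarian lines OVCAR8 and SKOV3 (labelled OVAR-8 and SKOV-3). Each line had 1 library of control cells, labelled parental with no treatment, 1 of cells that stably carried a vector for wild-type SIVA (SIVA-WT) and 1 of cells that stably carried a vector for a SIVA with the D160N change (SIVA-D160N), so the 12 libraries gave 4 per condition. SIVA is a proapoptotic protein, and the study compared the conditions to ask what the D160N form does to gene expression. The vectors used the CMV promoter, a strong viral promoter, and transfected cells were selected with hygromycin, with the populations of HCC1954, OVCAR8 and SKOV3 described as polyclonal. The control labels say parental and no treatment, although the transfection and selection protocol is attached to every sample, and the study's supplement names the same controls both as parental and as empty vector. If the controls had no vector, the SIVA insert and the vector with its selection cannot be told apart in a comparison with control.

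As background, the Hippo pathway is a kinase cascade that restrains the transcriptional coactivators YAP and TAZ. MST kinases (the products of STK3 and STK4) with the scaffold SAV1 phosphorylate and activate LATS kinases with their MOB1 cofactors, and LATS phosphorylates YAP and TAZ, which are then held in the cytoplasm or degraded. Unphosphorylated YAP and TAZ enter the nucleus, bind TEAD transcription factors and switch on genes for matrix and growth-related proteins such as CTGF, CYR61 and ANKRD1. Because this control acts on proteins, the mRNA levels given here describe how much transcript of each component the cells held and do not measure pathway activity.

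The promoter sequences are shown first because the targets are the readout genes of TEAD binding. In windows of 250 bases before the transcription start from RefSeq (GRCh38.p14), 27 of the 34 genes were matched by symbol, with 40 windows since some genes have several starts. TEAD1, TEAD4, STK3, LIMD1, CYR61, CRIM1 and ARHGEF17 were not matched. The TEAD motif GGAATG, searched on both strands, was in 8 of the 40 windows (20%), beside 11.9% of the 35116 windows of all genes in the table, and the 8 windows belonged to YAP1, PTPN14, AMOTL2, AJUBA, CTGF, ANKRD1, AXL and NUAK2. The AP-1 motif TGANTCA, searched on both strands, was in 4 of the 40 windows (10%), those of LATS1, MOB1B, ANKRD1 and F3, beside 6.57% of all windows. The 2 motifs share no bases in the windows printed here. A second TEAD motif was seen in 3 genes, all targets, and in 0.94% of all windows. These 3 windows are printed 5′ to 3′ on the strand of the gene, with the TEAD and AP-1 motifs in capitals. CTGF (listed as CCN2 in RefSeq, chr6:131951373-131951622, minus strand) has 3 TEAD motifs, ANKRD1 (chr10:90921088-90921337, minus strand) has 2 TEAD motifs and 1 AP-1 motif, and NUAK2 (chr1:205321746-205321995, minus strand) has 2 TEAD motifs, of which 1 is on the other strand and reads CATTCC. A match describes the letters only.
CTGF: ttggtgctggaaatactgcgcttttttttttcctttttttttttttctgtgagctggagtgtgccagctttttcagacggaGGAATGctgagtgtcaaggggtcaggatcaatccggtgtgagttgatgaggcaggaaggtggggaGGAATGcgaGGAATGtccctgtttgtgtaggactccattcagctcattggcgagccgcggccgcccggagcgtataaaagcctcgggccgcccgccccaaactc
ANKRD1: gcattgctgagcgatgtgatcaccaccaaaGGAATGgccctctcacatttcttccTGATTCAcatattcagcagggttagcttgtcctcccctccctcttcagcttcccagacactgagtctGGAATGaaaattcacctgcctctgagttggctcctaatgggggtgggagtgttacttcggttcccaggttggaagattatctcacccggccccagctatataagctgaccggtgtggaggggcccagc
NUAK2: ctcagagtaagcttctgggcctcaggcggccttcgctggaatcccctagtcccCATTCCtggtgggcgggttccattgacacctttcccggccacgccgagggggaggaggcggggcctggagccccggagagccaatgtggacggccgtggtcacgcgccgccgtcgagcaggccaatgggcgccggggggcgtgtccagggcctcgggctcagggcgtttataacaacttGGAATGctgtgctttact

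The libraries held between 35791455 and 45890398 counted reads. SIVA1, the gene for SIVA, was at 28.1, 66.3 and 52.6 CPM (counts per megaread, that is read counts scaled to library size with TMM factors) in the control libraries of MDA-MB-231, OVCAR8 and SKOV3, and every SIVA-WT and SIVA-D160N library of these lines was higher, from 68.2 to 177 CPM. The HCC1954 control library stood apart with 0 SIVA1 counts, beside 38.2 CPM in the SIVA-WT and 26.5 CPM in the SIVA-D160N library of that line, and results are therefore also given without it. Gene counts do not separate the D160N form from the wild type. The cell type markers set the lines apart but did not all follow the labels. E-cadherin (CDH1) was at 695 to 816 CPM in HCC1954 and at 0 to 0.493 CPM in the other lines, while vimentin (VIM) was at 95.6 to 290 CPM in HCC1954 and at 2930 to 3930 CPM elsewhere. Other markers of these lists had another order: the keratin gene KRT19 was at 63.9 to 89.7 CPM in MDA-MB-231 and 13.5 to 30.9 CPM in HCC1954, the line means of fibronectin (FN1) were alike at 203 to 237 CPM, and N-cadherin (CDH2) was at most 0.371 CPM in both breast lines. The Müllerian factor PAX8 was at 61.1 to 243 CPM in the ovarian lines and at 1.56 to 3.43 CPM in the breast lines. The other Müllerian markers did not follow the tissue, since MUC16 was at 66.1 to 115 CPM in the breast line HCC1954 and at most 1.58 CPM in the ovarian lines, and WT1 was at 5.55 to 8.06 CPM in HCC1954, 5.89 to 6.83 CPM in OVCAR8 and 0.397 to 1.11 CPM in SKOV3. Of the breast markers GATA3 and TFAP2C were high in HCC1954 only, at 42.8 to 49.7 and 118 to 133 CPM, while ANKRD30A was at or near 0 in all 12 libraries. The leukocyte and fibroblast markers PTPRC, CD3E, CD68 and DCN did not exceed 0.627 CPM in any library, and of the endothelial markers VWF did not exceed 3.43 CPM, while PECAM1 was at 32.6 to 62.8 CPM in HCC1954 and at most 1.81 CPM elsewhere.

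Libraries of the same line resembled each other once the condition means were taken out. Deviations of gene levels from the condition means correlated between libraries of the same line with coefficients from 0.929 to 0.968. This is a description over genes that share these libraries. Between libraries of different lines the coefficients ran from -0.447 to -0.191, and centring on a mean over the 4 lines by itself makes such values negative. Since the condition means were subtracted, the coefficients cannot show a sorting by condition. Levels of the 34 genes differed mostly between lines, as the plot of all 34 genes shows. AMOT apart, the ratio of the highest to the lowest line mean ran from 1.26 for LATS2 to 329 for ANKRD1, with a median of 3.41 over all 34, and 15 of the 34 ranged over more than 4-fold. The log2 differences fitted between conditions over the 4 lines lay between -0.46 and 0.54 for all 34. These are averages in which opposite signs cancel, so they are not a like measure to the range of line means. Within single lines, the log2 ratios of SIVA-D160N to control ran from -1.68 for NT5E to 3.06 for ANKRD1, both in SKOV3.

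**Figure D1:**
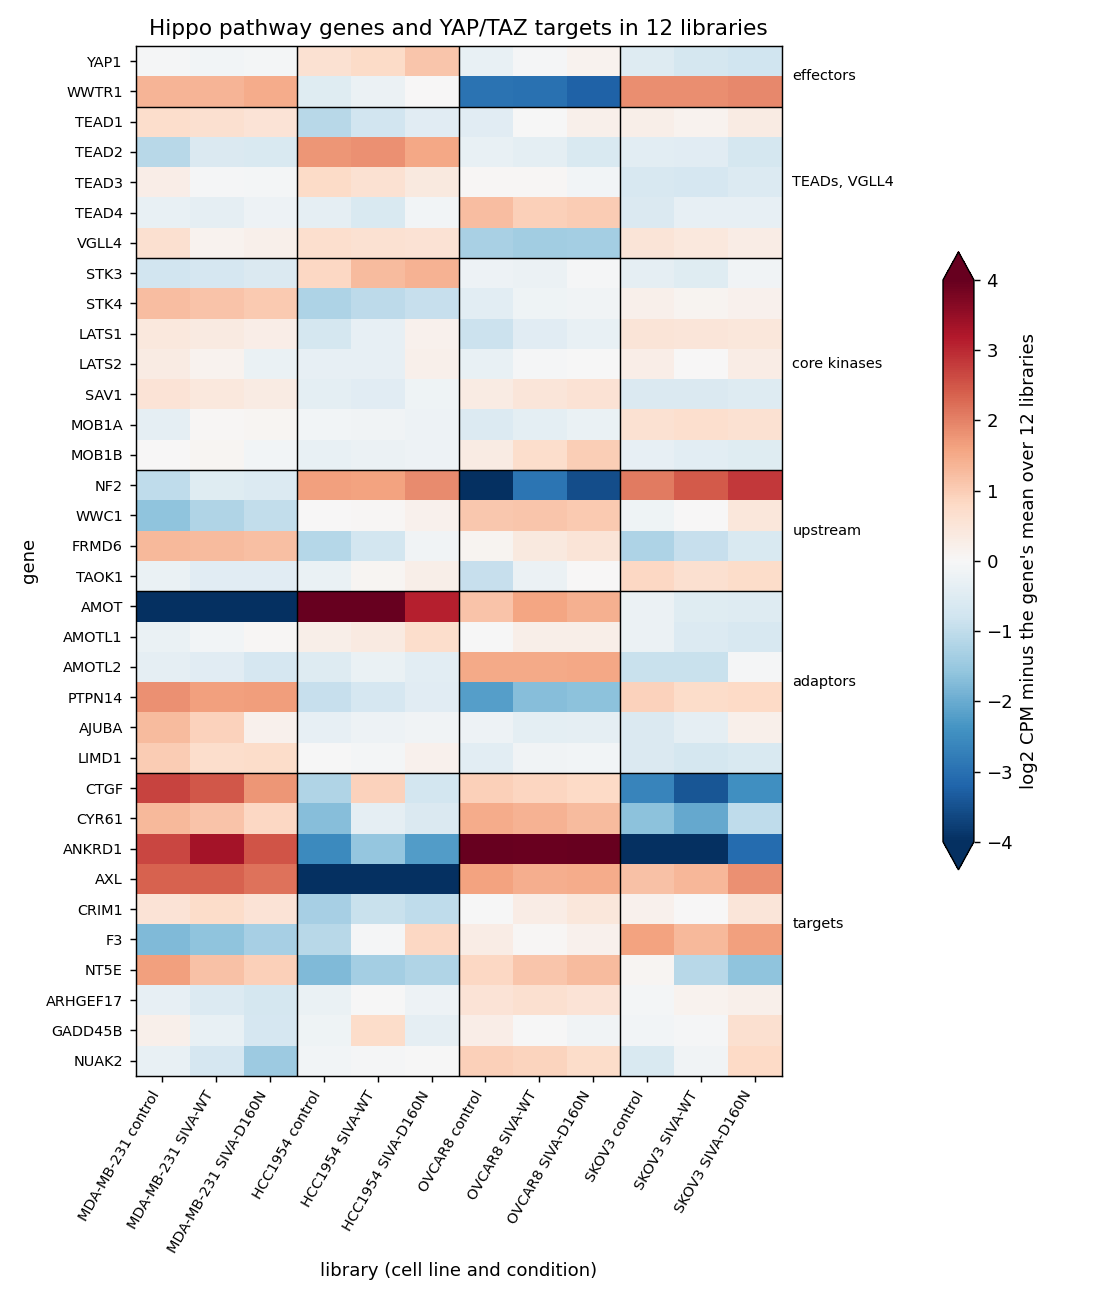
Log2 CPM of the 34 genes in the 12 libraries, each gene relative to its own mean over the 12 libraries and the colour scale limited to 4 log2 units either way, with genes grouped by role and vertical lines between cell lines. Colours change mostly between lines: WWTR1 and NF2 were lowest in OVCAR8, AMOT in MDA-MB-231 and AXL in HCC1954, while the 3 libraries of a line look alike.

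The line comparisons ask how the pathway was set in each cell line. They take the 3 libraries of a line, 1 per condition, as its replicates after removing the condition effect. A gene was called different between 2 lines at an adjusted p below 0.05 and a log2 difference above 1.5 in edgeR's quasi-likelihood test. The filter worked by condition, so a gene read in a single line can be missing from all genes tested. VGLL1 was such a gene, at 78.7 CPM in the HCC1954 control library. In bulk RNA, fewer cells of a kind and less RNA per cell cannot be told apart. MDA-MB-231 and HCC1954 differed in 15 of the 34 genes (44.1%), beside 30.6% of all genes tested. The other 5 pairs were nearer to the background: 9 genes between MDA-MB-231 and OVCAR8 (26.5%, all genes 24.2%), 8 between MDA-MB-231 and SKOV3 (23.5%, all genes 27.8%), 10 between HCC1954 and OVCAR8 (29.4%, all genes 30.6%), 8 between HCC1954 and SKOV3 (23.5%, all genes 29.3%) and 10 between OVCAR8 and SKOV3 (29.4%, all genes 28.1%). In all, 19 of the 34 genes (55.9%) were called in at least 1 pair, as were 54.1% of all genes tested. The set as a whole thus did not stand out from the genes tested in this count. The roles differed, however: between 2 and 7 of the 10 targets were called in each pair, while the 7 core kinase genes gave 2 calls between MDA-MB-231 and HCC1954, 1 between HCC1954 and SKOV3 and 0 in the other 4 pairs. This contrast between roles was not tested.

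The effectors YAP1 and WWTR1, which encode YAP and TAZ, were set differently in the 4 lines. YAP1 (ENSG00000137693, chr11:102110447-102233424) was at 228, 221 and 223 CPM in the control, SIVA-WT and SIVA-D160N libraries of MDA-MB-231, at 362, 402 and 513 CPM in HCC1954, at 193 and 263 CPM in the control and SIVA-D160N libraries of OVCAR8 with SIVA-WT between them (8801 reads), and at 165, 147 and 137 CPM in SKOV3. HCC1954 was highest and SKOV3 lowest without overlap, while MDA-MB-231 and OVCAR8 overlapped and did not differ beyond their spread (log2 difference -0.02, SE 0.14, adjusted p = 0.9). All YAP1 differences stayed under the fold threshold, the largest being HCC1954 over SKOV3 (log2 difference 1.49, SE 0.14, adjusted p = 3.19e-06). WWTR1 (ENSG00000018408, chr3:149517235-149724788) was at 163, 163 and 176 CPM in MDA-MB-231, at 45.3, 53.9 and 63.9 CPM in HCC1954, at 8.2, 7.94 and 6.7 CPM in OVCAR8 and at 232, 228 and 237 CPM in SKOV3. No 2 lines overlapped, and WWTR1 was 30.5-fold lower in OVCAR8 than in SKOV3 (log2 difference -4.93, SE 0.15, adjusted p = 7.63e-10) and 21.9-fold lower than in MDA-MB-231 (adjusted p = 1.78e-09). WWTR1 was called in 5 of the 6 pairs, the exception being MDA-MB-231 against SKOV3 (log2 difference -0.47, SE 0.12, adjusted p = 0.0052). The call between MDA-MB-231 and HCC1954 (log2 difference 1.63, SE 0.13) sat at the fold threshold and was lost without the HCC1954 control library, where the difference was 1.5.

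To set the effectors side by side, CPM was divided by the length of the exons in kb. The ratio of YAP1 to WWTR1 on this scale was 40.5 ± 10.5 in OVCAR8 (SD, n = 3 libraries), 10.4 ± 0.422 in HCC1954, 1.77 ± 0.0889 in MDA-MB-231 and 0.853 ± 0.0881 in SKOV3. OVCAR8 thus held mostly YAP1 transcript of the 2 effectors, while SKOV3 held slightly more WWTR1, and the ranges of the 4 lines did not overlap.

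**Figure D2:**
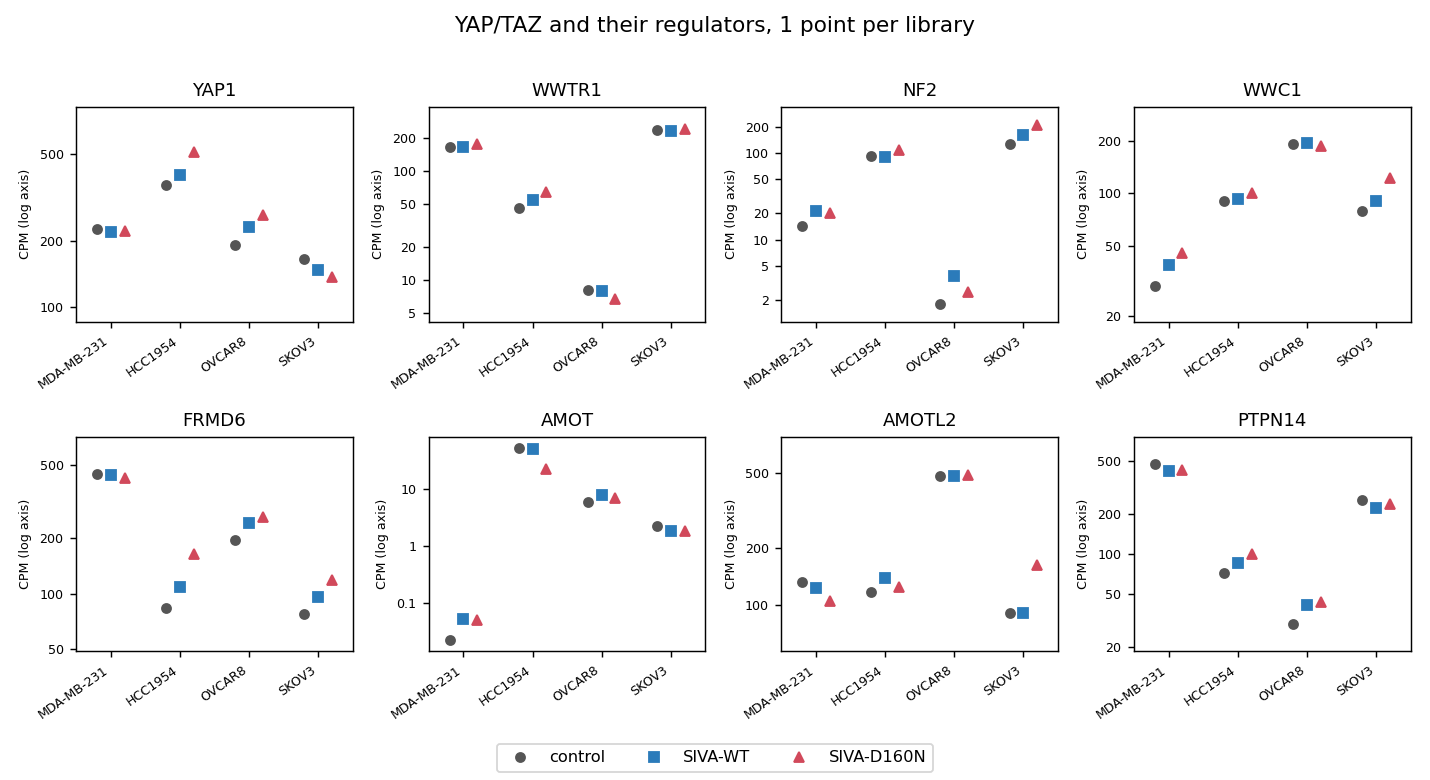
CPM on a log axis, which differs between panels, of the effectors YAP1 and WWTR1 and of 6 regulator genes, with 1 point per library, lines along the x axis and conditions by colour and symbol. WWTR1 and NF2 reached their lowest levels in OVCAR8 (6.7 to 8.2 and 1.81 to 3.78 CPM), where AMOTL2 was highest (480 to 487 CPM), and the MDA-MB-231 points of AMOT rest on 1 or 2 reads.

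TEAD proteins are the DNA-binding partners of YAP and TAZ. In CPM, TEAD1 was the highest TEAD gene in every library of MDA-MB-231, OVCAR8 and SKOV3, and it overlapped with TEAD2 in HCC1954. The leading TEAD gene differed between lines when CPM was divided by exon length, as given below. TEAD1 was at 283, 270 and 254 CPM in MDA-MB-231, at 80.3, 103 and 127 CPM in HCC1954, at 127, 173 and 200 CPM in OVCAR8 and at 206, 190 and 217 CPM in SKOV3. MDA-MB-231 was highest without overlap, the ranges of OVCAR8 and SKOV3 overlapped (adjusted p = 0.0865) and HCC1954 met OVCAR8 at 127 CPM (log2 difference -0.69, SE 0.15, adjusted p = 0.00196). TEAD2 was at 104, 107 and 88.6 CPM in HCC1954 and between 14.1 and 24.5 CPM in the other 9 libraries. It was the TEAD gene with calls between lines: HCC1954 exceeded MDA-MB-231 5.5-fold (log2 difference 2.46 in favour of HCC1954, SE 0.15, adjusted p = 8.79e-08), OVCAR8 4.42-fold and SKOV3 4.75-fold. TEAD3 ran from 54.4 to 70.4 CPM in HCC1954, from 39.4 to 49.6 CPM in MDA-MB-231, from 38.4 to 42.5 CPM in OVCAR8 and from 25.9 to 28 CPM in SKOV3. MDA-MB-231 and OVCAR8 did not differ beyond their spread for TEAD3 (adjusted p = 0.626), and no pair passed the fold threshold. TEAD4 was at 95.6, 79.8 and 82 CPM in OVCAR8 and between 26.6 and 38 CPM elsewhere, so OVCAR8 was above the other lines without overlap but under the fold threshold (log2 difference from SKOV3 1.48, SE 0.13, adjusted p = 1.68e-06).

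On the scale of CPM per kb of exon, the sum of the 4 TEAD genes was 60.1 ± 1.6 in MDA-MB-231 (SD, n = 3 libraries), 77.8 ± 1.7 in HCC1954, 74.3 ± 1.6 in OVCAR8 and 48.5 ± 1.3 in SKOV3, so the sum varied less than its parts. TEAD1 made up 41.8 ± 1.4% of it in MDA-MB-231 and 39.4 ± 2% in SKOV3 but 12.5 ± 3.1% in HCC1954. TEAD2 made up 43 ± 3.6% in HCC1954 and at most 14.6 ± 1.9% elsewhere. TEAD4 made up 50.7 ± 4% in OVCAR8. These shares depend on the exon lengths used, 10.7 kb for TEAD1, 2.98 kb for TEAD2 and 2.275 kb for TEAD4. VGLL4, which competes with YAP and TAZ for TEAD, was at 17, 16.3 and 16.3 CPM in OVCAR8 and at 46.2 to 67.4 CPM in the other lines. It was called lower in OVCAR8 against each of them, by 3.93-fold from HCC1954 (adjusted p = 4.2e-08), 3.41-fold from SKOV3 (adjusted p = 1.29e-07) and 3.21-fold from MDA-MB-231 (adjusted p = 2.38e-07).

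**Figure D3:**
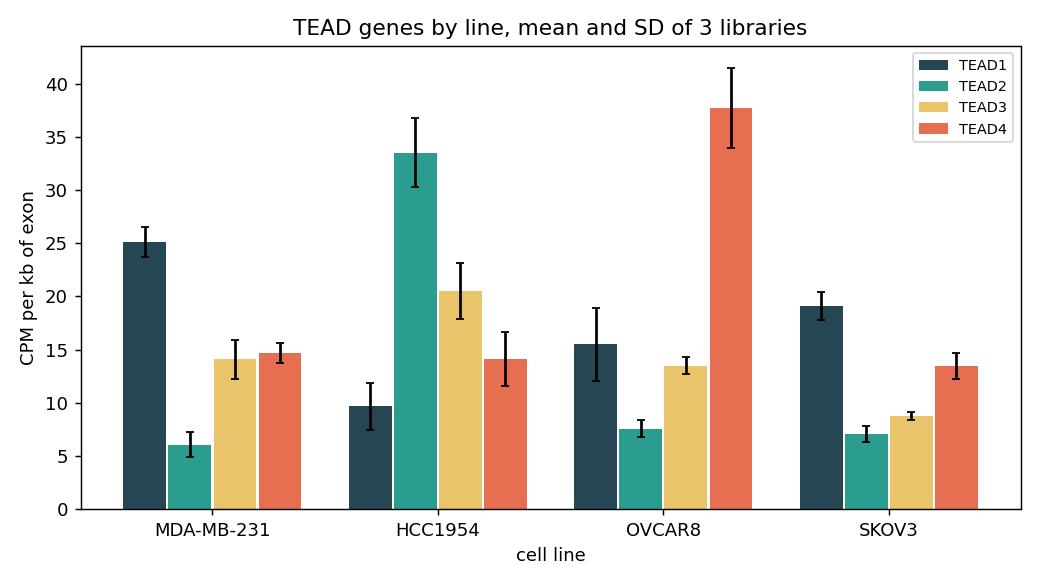
Mean CPM per kb of exon of TEAD1, TEAD2, TEAD3 and TEAD4 in each line, where bars are means and error bars SDs of the 3 libraries of a line. TEAD1 was the highest bar in MDA-MB-231 and SKOV3, TEAD2 in HCC1954 and TEAD4 in OVCAR8.

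The 7 genes of the core kinase module gave 3 calls over the 6 pairs of lines. LATS2, a kinase that phosphorylates YAP and TAZ and is itself one of their targets, was at 37.4, 32.9 and 24.7 CPM in MDA-MB-231, at 23.8, 24.1 and 34.9 CPM in HCC1954, at 24.5, 29 and 29.6 CPM in OVCAR8 and at 36.4, 30.5 and 37 CPM in SKOV3. All pairs of lines overlapped except OVCAR8 and SKOV3, whose ranges lay next to each other, and the adjusted p of the 6 pairs ran from 0.133 to 0.947. Its relative LATS1 ran from 20.7 to 54 CPM over the 12 libraries. The MST kinase genes had opposite orders: STK4 was highest in MDA-MB-231 at 237 to 275 CPM and lowest in HCC1954 at 49.5 to 60.9 CPM (4.65-fold, adjusted p = 2.73e-08), while STK3 was highest in HCC1954 at 88.5 to 131 CPM and lowest in MDA-MB-231 at 29.7 to 33.5 CPM (3.59-fold, adjusted p = 1.21e-07). STK3 also differed between HCC1954 and SKOV3 (log2 difference 1.5, SE 0.12, adjusted p = 5.76e-07). The scaffold SAV1 ran from 34.8 to 76.7 CPM, and the LATS cofactors MOB1A and MOB1B ran from 108 to 249 CPM and from 40.4 to 111 CPM, with no call for these 3 genes in any pair.

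Among the upstream regulators, NF2 set the lines apart most. NF2 (ENSG00000186575, chr22:29603556-29698600) encodes merlin, a membrane-linked scaffold that brings LATS to its activators. It was at 1.81, 3.78 and 2.46 CPM in OVCAR8 (66, 144 and 94 reads), at 14.4, 21.1 and 20.1 CPM in MDA-MB-231, at 91.8, 90.1 and 108 CPM in HCC1954 and at 125, 159 and 211 CPM in SKOV3. The 4 lines did not overlap. SKOV3 was 61.3-fold above OVCAR8 (log2 difference 5.94, SE 0.22, adjusted p = 3.06e-09), HCC1954 36.7-fold (adjusted p = 3.68e-09) and MDA-MB-231 6.92-fold (adjusted p = 4.69e-07). WWC1, which encodes the merlin partner KIBRA, had the opposite extreme, since it was highest in OVCAR8 at 186 to 195 CPM and lowest in MDA-MB-231 at 29.5 to 45.4 CPM (5.1-fold, adjusted p = 1.05e-07). FRMD6, which encodes a merlin-related protein, ran from 422 to 444 CPM in MDA-MB-231 and from 77.8 to 119 CPM in SKOV3 (4.57-fold, adjusted p = 5.18e-07). TAOK1, a kinase that activates MST, ran from 68.2 to 228 CPM with no call.

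The adaptors that bind YAP, TAZ or LATS held the gene with the widest spread of all 34. AMOT (ENSG00000126016, chrX:112774877-112840831), which encodes angiomotin, was represented by 1, 2 and 2 reads in the MDA-MB-231 libraries, under the 3 reads taken as the floor. In the other lines it was at 53.5, 51.9 and 23.1 CPM in HCC1954, at 5.87, 7.94 and 7.12 CPM in OVCAR8 and at 2.22, 1.84 and 1.82 CPM in SKOV3. The 4 lines did not overlap and all 6 pairs were called. HCC1954 exceeded OVCAR8 5.87-fold (adjusted p = 3.97e-06), and OVCAR8 exceeded SKOV3 3.59-fold (adjusted p = 8.15e-05). Of its relatives, AMOTL1 ran from 67 to 167 CPM over the libraries with no call, and AMOTL2, a target of YAP as well as its binding partner, was at 483, 480 and 487 CPM in OVCAR8 against 90.4 to 162 CPM elsewhere (4.03-fold over MDA-MB-231, adjusted p = 6.25e-06). PTPN14, a phosphatase that retains YAP outside the nucleus, was at 425 to 479 CPM in MDA-MB-231, 223 to 255 CPM in SKOV3, 71.2 to 99.5 CPM in HCC1954 and 29.5 to 43.2 CPM in OVCAR8 (11.8-fold between MDA-MB-231 and OVCAR8, adjusted p = 1.78e-08). The LIM-domain genes AJUBA and LIMD1, whose proteins bind LATS, ran from 106 to 381 CPM and from 30 to 99.1 CPM with no call.

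The targets of YAP and TAZ did not share 1 order of lines. CTGF (ENSG00000118523, chr6:131948176-131951372), a secreted matrix protein whose promoter is printed above, was at 1550, 1310 and 802 CPM in MDA-MB-231, at 103, 447 and 143 CPM in HCC1954, at 454, 428 and 408 CPM in OVCAR8 and at 38.2, 22 and 43.7 CPM in SKOV3. SKOV3 was below and MDA-MB-231 above all others without overlap (33.6-fold between them, log2 difference 5.07, SE 0.53, adjusted p = 7.66e-06). The SIVA-WT library of HCC1954 reached the OVCAR8 level, and HCC1954 and OVCAR8 did not differ beyond their spread (adjusted p = 0.0719). CYR61 (ENSG00000142871, chr1:85580761-85583950), a relative of CTGF, was at 1760, 1570 and 1260 CPM in MDA-MB-231, at 219, 553 and 483 CPM in HCC1954, at 2010, 1880 and 1700 CPM in OVCAR8 and at 228, 171 and 352 CPM in SKOV3. It formed a high pair, MDA-MB-231 and OVCAR8 (adjusted p between them 0.457), and a low pair, HCC1954 and SKOV3 (adjusted p = 0.0629), and all 4 comparisons across these pairs were called.

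ANKRD1 (ENSG00000148677, chr10:90912096-90921087), a nuclear ankyrin-repeat protein, was at 176, 283 and 160 CPM in MDA-MB-231, at 4.75, 9.43 and 5.82 CPM in HCC1954, at 468, 432 and 512 CPM in OVCAR8 and at 0.344, 0.717 and 3.23 CPM in SKOV3. The lines did not overlap, and OVCAR8 was 350-fold above SKOV3 (log2 difference 8.45, SE 0.6, adjusted p = 3.16e-07), where the values rest on 13, 32 and 131 reads. Both ANKRD1 and CTGF were thus lowest in SKOV3, the line with the highest WWTR1 but also the lowest YAP1 and the highest NF2. A relation of the targets to these genes was not tested. AXL, a receptor tyrosine kinase, was at 3.12, 4.78 and 10.4 CPM in HCC1954 and at 475 to 1090 CPM in the other lines, 184-fold below MDA-MB-231 (adjusted p = 1.26e-08). F3, which encodes tissue factor, went the other way from CTGF: it was at 1060, 862 and 1080 CPM in SKOV3 and at 104, 116 and 139 CPM in MDA-MB-231 (8.47-fold, adjusted p = 6.57e-06).

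NT5E, which encodes the ectonucleotidase CD73, was at 726, 532 and 458 CPM in MDA-MB-231, at 414, 505 and 560 CPM in OVCAR8, at 246, 110 and 76.7 CPM in SKOV3 and at 68.8, 90.7 and 102 CPM in HCC1954. MDA-MB-231 and OVCAR8 overlapped, as did SKOV3 and HCC1954, and the calls lay between these pairs (6.33-fold for MDA-MB-231 over HCC1954, adjusted p = 4.47e-05). CRIM1, a membrane protein that binds BMPs, was lowest in HCC1954 at 78.5 to 108 CPM and ran from 198 to 334 CPM elsewhere. Of the remaining targets, ARHGEF17 ran from 32.8 to 84.3 CPM, the stress gene GADD45B from 30.8 to 82 CPM and the kinase gene NUAK2, whose promoter is printed above, from 3.06 to 16.6 CPM, with 1 call among them, NUAK2 between OVCAR8 and MDA-MB-231 (3.03-fold, adjusted p = 0.00207).

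**Figure D4:**
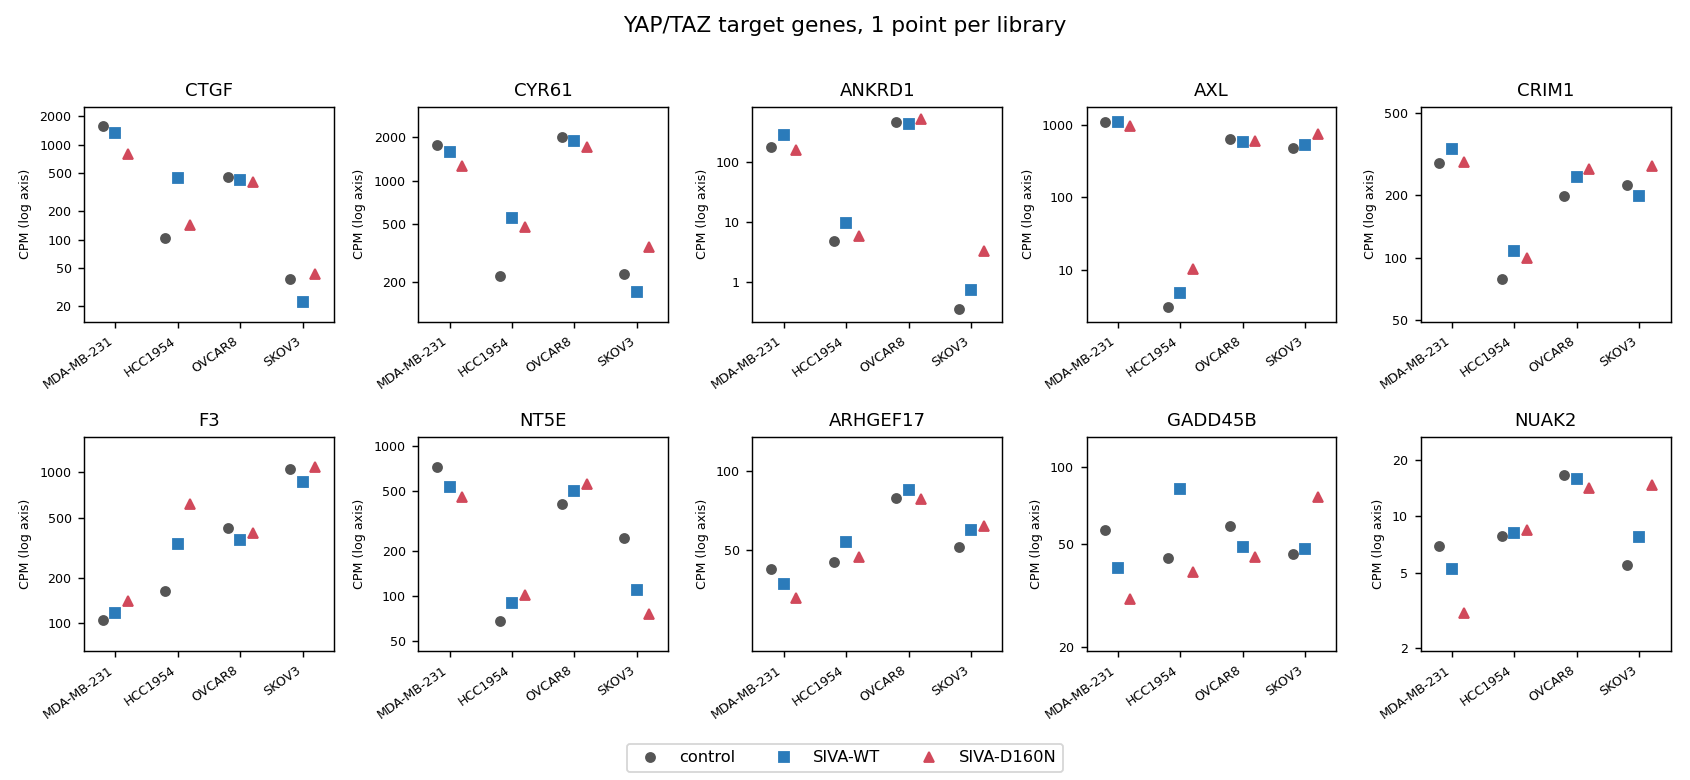
CPM on a log axis, which differs between panels, of the 10 YAP/TAZ target genes, with 1 point per library and conditions by colour and symbol. CTGF and ANKRD1 were lowest in SKOV3, AXL, CRIM1 and NT5E had their lowest line mean in HCC1954, and F3 was lowest in MDA-MB-231. Within a line, the 3 conditions spread most visibly for ANKRD1 in SKOV3 (0.344 to 3.23 CPM), CTGF and F3 in HCC1954 (103 to 447 and 162 to 617 CPM), AXL in HCC1954 (3.12 to 10.4 CPM) and NT5E in SKOV3 (76.7 to 246 CPM).

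SIVA-D160N was compared with control over the 4 lines, with the line as a term of the model, which asks what the D160N form changed in all lines alike. None of the 34 genes passed the thresholds of an adjusted p below 0.05 and a log2 difference above 1.5 in edgeR, and 0.00581% of all genes tested, which is 1 gene, did. At an unadjusted p below 0.05, 6 of the 34 genes (17.6%) stood out, all higher in SIVA-D160N, beside 14.2% of all genes in both directions. That share of all genes was made up of 1123 higher and 1322 lower genes. DESeq2 gave 9 of the 34 and limma-voom 9 at the same level. The share of all genes was not taken for these tools, here or in the comparisons below. The 14.2% is therefore no background for their counts. The 6 genes were TEAD1, STK3, NF2, WWC1, FRMD6 and CRIM1. The 4 with the smallest p were 3 of the 4 upstream regulators and an MST kinase gene. FRMD6 was 1.4-fold higher (log2 difference 0.48, SE 0.14, 95% interval 0.18 to 0.79, adjusted p = 0.197), with a log2 ratio of 0.98 in HCC1954, 0.62 in SKOV3 and 0.41 in OVCAR8 but -0.07 in MDA-MB-231. NF2 was 1.39-fold higher (log2 difference 0.48, SE 0.16, 95% interval 0.13 to 0.82, adjusted p = 0.233) and had a positive ratio in 4 of 4 lines, from 0.24 in HCC1954 to 0.76 in SKOV3. For WWC1 the log2 difference was 0.34 (SE 0.11, 95% interval 0.09 to 0.59, adjusted p = 0.237), positive in 3 of 4 lines. STK3 had a log2 difference of 0.28 (SE 0.1, 95% interval 0.06 to 0.5, adjusted p = 0.262), positive in 4 of 4 lines. The FRMD6 and STK3 differences were smaller without the HCC1954 line, at 0.32 and 0.19, and STK3 was at 0.17 without only the HCC1954 control library. Without the line as replicate block FRMD6 was at 0.27 and WWC1 at 0.22.

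**Figure D5:**
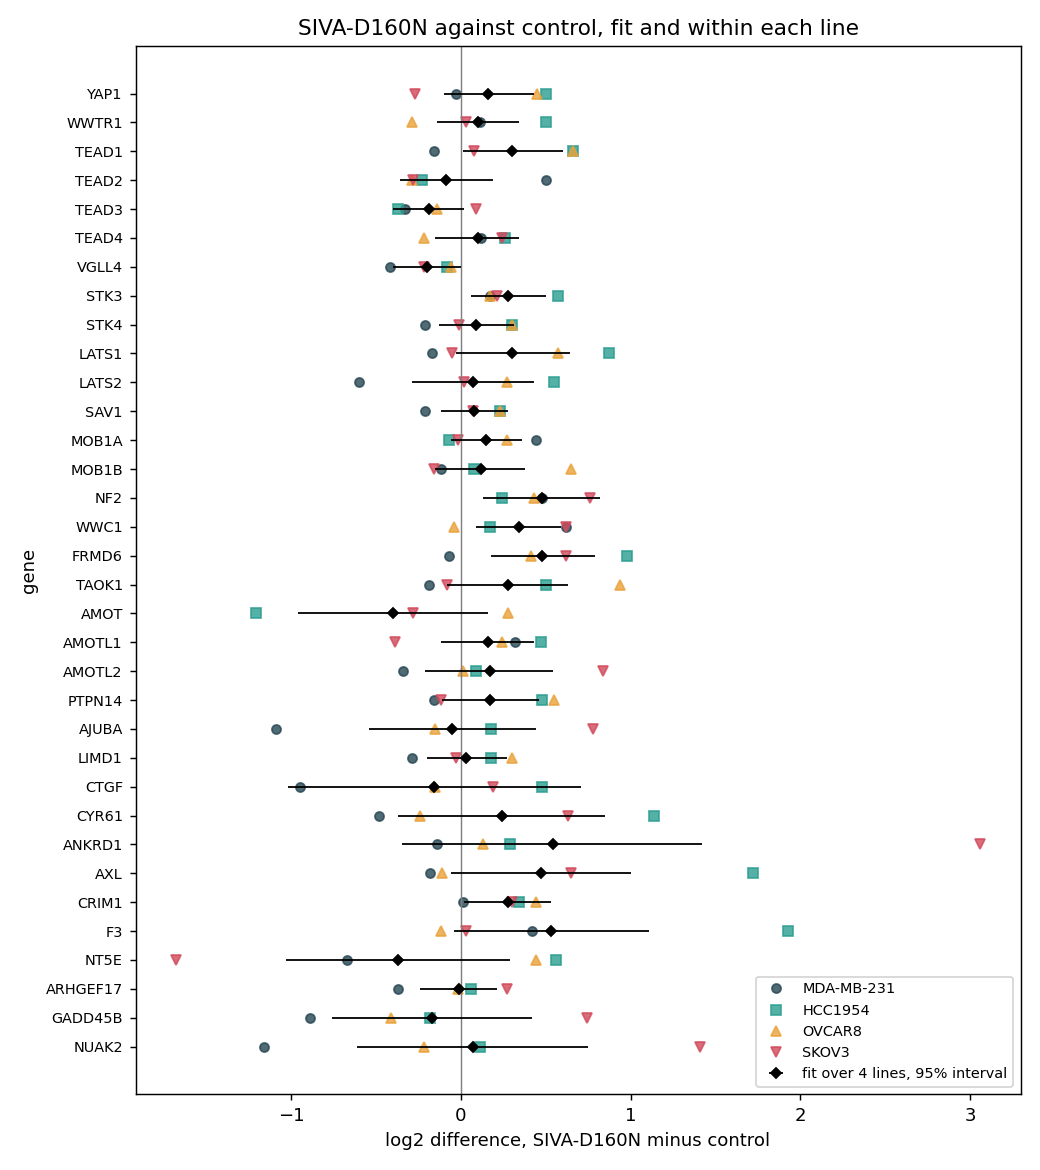
Log2 difference of SIVA-D160N minus control for the 34 genes, where black diamonds and bars give the fit over 4 lines with its 95% interval and coloured symbols give the ratio within each line, from 1 library per condition. The MDA-MB-231 ratio of AMOT is left out, since it rests on 1 and 2 reads. Most intervals cover 0, and the line points of targets such as ANKRD1, NT5E and NUAK2 lie on both sides of it.

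By role, the median log2 difference between SIVA-D160N and control was 0.41 over the 4 upstream regulators, 0.12 over the 7 core kinase genes, 0.13 over the 2 effectors, 0.1 over the 6 adaptors, 0.15 over the 10 targets and -0.09 over TEAD1 to TEAD4 and VGLL4, beside -0.01 over all genes. The median over the 34 was 0.13, with 25 values above and 9 below 0, beside 8311 above and 8900 below for all genes. The split of the 34 was also 25 to 9 for SIVA-WT against control, and 26 to 8 for SIVA-D160N against SIVA-WT. Direction was the same in all 4 lines for CRIM1, NF2 and STK3, which were higher (8.82% of the 34, beside 6.95% of all genes), and for VGLL4, which was lower (2.94%, beside 9.06%). The smallest two-sided p that the exact sign-flip permutation test over 4 lines can give, which each of these 4 had, rounds to 0.13. For the effectors, the differences were 0.16 for YAP1 (95% interval -0.1 to 0.43) and 0.1 for WWTR1 (-0.14 to 0.34), so neither interval reached the threshold of 1.5 log2 units. For CTGF (-1.02 to 0.71), CYR61 (-0.37 to 0.85) and ANKRD1 (-0.35 to 1.42) the intervals were wider. The ratio of ANKRD1 was 3.06 in SKOV3, from 13 reads in the control library, and -0.14 to 0.29 in the other lines.

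SIVA-WT against control, which asks what more wild-type SIVA does, gave 0 of 34 genes past the thresholds and 0% of all genes. NF2 was the 1 gene (2.94%) at an unadjusted p below 0.05, beside 2.54% of all genes, and DESeq2 and limma-voom also gave 1 each. NF2 had a log2 difference of 0.43 (SE 0.16, 95% interval 0.08 to 0.78, adjusted p = 1), positive in 3 of 4 lines with 1.04 in OVCAR8, and it was 0.29 without OVCAR8 and 0.24 without the line as replicate block. Next by p came VGLL4 (log2 difference -0.19, SE 0.09, adjusted p = 1), below 0 in 4 of 4 lines with -0.5 in MDA-MB-231 and -0.08 without that line. CRIM1 (0.21, SE 0.12, adjusted p = 1) and FRMD6 (0.24, SE 0.14, adjusted p = 1) were positive in 3 of 4 lines each, and CRIM1 was at 0.13 without HCC1954 and 0.33 without SKOV3, while FRMD6 was at 0.14 without the HCC1954 control library and 0.15 without the block. WWC1 was the gene with a higher level in all 4 lines and VGLL4 the one with a lower level (2.94% of the 34 each, beside 4.96% and 4.92% of all genes). This comparison and the one above share the control libraries.

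SIVA-D160N against SIVA-WT, the comparison that holds vector and selection alike, gave 0 of 34 genes past the thresholds and 0% of all genes. At an unadjusted p below 0.05 it gave 0 of the 34, beside 6.88% of all genes, with 0 by DESeq2 and 1 by limma-voom. The 4 genes with the smallest p were STK3, AMOT, FRMD6 and F3. STK3 (log2 difference 0.18, SE 0.1, adjusted p = 0.759) and F3 (0.44, SE 0.26, adjusted p = 0.77) were higher in SIVA-D160N in 4 of 4 lines, and F3 was at 0.25 without HCC1954. FRMD6 (0.25, SE 0.14, adjusted p = 0.764) was higher in 3 of 4 lines and at 0.12 without HCC1954 or without the block. AMOT (-0.46, SE 0.25, adjusted p = 0.764) rested on HCC1954, where it dropped from 51.9 CPM with the wild type to 23.1 CPM with D160N, and was -0.1 without that line, -0.74 in limma-voom and -0.95 without the block.

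Within a line there is 1 library per condition, so ratios carry no test and are given where they passed 2-fold. For SIVA-D160N against control, 2 of the 34 genes did so in MDA-MB-231 (5.88%, all genes 6.82%), 4 in HCC1954 (11.8%, all genes 10.2%), 0 in OVCAR8 (all genes 3.51%) and 3 in SKOV3 (8.82%, all genes 8.74%), shares close to the background in each line. In MDA-MB-231 the LATS-binding AJUBA (381 to 179 CPM, log2 ratio -1.09) and NUAK2 (6.92 to 3.06 CPM, -1.16) were lower. In HCC1954 F3 (162 to 617 CPM, 1.93), AXL (3.12 to 10.4 CPM, 1.72) and CYR61 (219 to 483 CPM, 1.14) were higher and AMOT (53.5 to 23.1 CPM, -1.21) was lower. In SKOV3 ANKRD1 (0.344 to 3.23 CPM, 3.06) and NUAK2 (5.51 to 14.7 CPM, 1.41) were higher and NT5E (246 to 76.7 CPM, -1.68) was lower. NUAK2 therefore passed 2-fold in opposite directions in MDA-MB-231 and SKOV3.

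Over the 10 targets, the median log2 ratio of SIVA-D160N to control was 0.46 in SKOV3 and 0.41 in HCC1954, with 9 targets above 0 in each, and -0.11 in OVCAR8 and -0.42 in MDA-MB-231, with 3 and 2 targets above 0. Over all 34 genes, targets included, the median was 0.07 in SKOV3, 0.29 in HCC1954, 0.2 in OVCAR8 and -0.16 in MDA-MB-231. In the same order 21, 28, 20 and 11 of the 34 were above 0, so the direction was not particular to the targets in HCC1954 and MDA-MB-231. The median over all genes was between -0.02 and 0 in the 4 lines, and the share of all genes above 0 was not taken. CTGF, CYR61, AXL and GADD45B, named here after their values were seen, were all lower in the SIVA-D160N than in the control library of MDA-MB-231, where GADD45B went from 57.1 to 30.8 CPM. In SKOV3 the same 4 genes were higher, with GADD45B at 45.8 and 76.6 CPM. For SIVA-WT against control, 0 of 34 genes passed 2-fold in MDA-MB-231 (all genes 4.57%), 3 in HCC1954 (8.82%, all genes 4.49%), 1 in OVCAR8 (2.94%, all genes 3.16%) and 1 in SKOV3 (2.94%, all genes 5.79%). The 3 in HCC1954 were all targets and higher: CTGF (103 to 447 CPM, log2 ratio 2.12), CYR61 (219 to 553 CPM, 1.34) and F3 (162 to 335 CPM, 1.05). All 10 targets were above 0 in that line, with a median of 0.75, and all 10 ratios share the HCC1954 control library that held no SIVA1 read. Of all 34 genes, 26 were above 0 there, with a median of 0.21. The single genes were NF2 in OVCAR8 (1.81 to 3.78 CPM, 1.04) and NT5E in SKOV3 (246 to 110 CPM, -1.17).

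An interaction term asked whether SIVA-D160N acted differently in the ovarian and the breast lines. No gene of the 34 passed an adjusted p below 0.05, and 0.00581% of all genes did. F3 and AMOT had an unadjusted p below 0.05 (5.88% of the 34, beside 5.06% of all genes). The ovarian minus breast difference was -1.21 for F3 (SE 0.4, adjusted p = 0.964) and 1.13 for AMOT (SE 0.4, adjusted p = 0.964), and HCC1954 held the largest ratio of either gene in size, 1.93 for F3 and -1.21 for AMOT, beside -0.12 to 0.42 and -0.28 to 0.45 in the other lines. The AMOT ratio of 0.45 is that of MDA-MB-231 and rests on 1 and 2 reads, under the floor, and this line enters the AMOT estimate. With 2 lines per tissue and 1 library per line and condition, tissue and line cannot be told apart.

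Other genes of the pathway were read from lists drawn up by name, with earlier results of these data known. Of 24 further upstream genes, 0 passed the thresholds for SIVA-D160N against control, 3 were higher and 1 lower at an unadjusted p below 0.05, a share close to the 14.2% of all genes, and the median log2 difference was 0.08. WWC2, a relative of WWC1, had the smallest p of them (log2 difference 0.55, SE 0.14, adjusted p = 0.159, positive in 4 of 4 lines). Of 9 genes of the STRIPAK phosphatase complex, which dephosphorylates MST, 0 passed, the median was 0.03 and SIKE1 had the smallest p (0.24, SE 0.07, adjusted p = 0.213). Of 4 further TEAD cofactor genes, 2 were tested and 0 passed, with the smallest p for WBP2 (-0.14, SE 0.09, adjusted p = 0.521). Of 15 further YAP/TAZ targets, 0 passed, 4 were higher and 0 lower at an unadjusted p below 0.05, and the median was 0.19. Beside them stand 14.2% of all genes in both directions, 1123 of them higher and 1322 lower. THBS1, which encodes thrombospondin, had the smallest p of them (1.33, SE 0.38, adjusted p = 0.206), at 609 and 2900 CPM in the control and SIVA-D160N libraries of HCC1954, at 447 and 2350 CPM in SKOV3 and at 245 and 202 CPM in OVCAR8. The study's own Hippo list of CDH16, KIT and PLCB4 was chosen on these samples and is no independent evidence of a direction. Of it, 2 genes were tested and 0 passed, and CDH16 had the smallest p (1.3, SE 0.34, adjusted p = 0.192), with 64.4 and 147 CPM in control and SIVA-D160N of SKOV3 and under 1 CPM in the other lines. In SIVA-WT against control and SIVA-D160N against SIVA-WT, 0 genes of these lists passed as well. Of the cell type markers, 0 passed in any condition comparison, and the median log2 difference of SIVA-D160N against control was 0.02 over the epithelial, 0.3 over the mesenchymal, 0.03 over the breast and 0.16 over the Müllerian markers, -0.56 over ERBB2 and GRB7 of the ERBB2 amplicon, and -1.07 over PECAM1 and VWF, the tested genes among the markers of other cells. The marker with the smallest p was KRT19 (log2 difference -0.77, SE 0.17, adjusted p = 0.148), below 0 in 4 of 4 lines, of which OVCAR8 held 1 read in control and 0 in SIVA-D160N. MUC16 of the Müllerian markers (0.94, SE 0.25, adjusted p = 0.176) and VWF (-0.95, SE 0.28, adjusted p = 0.209) had the next smallest. The part of these markers in the differences above was not tested.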

How the data were processed

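Poly(A) RNA libraries (TruSeq Stranded mRNA) were aligned by the authors to GRCh38 with STAR 2.5.3a, per the submitters' processing notes in the labels. The deposited values used here are raw read counts per gene, and the annotation release and strand setting of the counting are not given in the sources used here. A CPM table was not used. Genes were filtered with filterByExpr by condition (17211 of 57187 kept), scaled by TMM and tested with edgeR 4.0.16 (quasi-likelihood, Benjamini-Hochberg adjustment over all genes tested) on line plus condition over 12 libraries, with an adjusted p below 0.05 and a log2 difference above 1.5. Libraries of a line share that line, so line is the block of the design (deviations correlated at 0.929 or more within a line). Nothing says that libraries came from separate cultures, so p-values measure the spread between these libraries. Ratios within a line used log2 CPM with a prior count of 2. Alternatives were DESeq2 1.42.0, limma-voom 3.58.1, RLE size factors, no filter, no block and libraries left out. On simulated data for SIVA-D160N against control, with 16928 genes tested, 99.5% of 198 changed genes were recovered. Whether this share holds for differences as small, and as unlike between lines, as those given here was not tested. Exon lengths came from GENCODE and positions and promoters from RefSeq. Counting error sets a floor of 3 reads, 0.0664 to 0.0856 CPM, and no library pair was identical. Every one of the 34 genes is named; full statistics are given for the 4 with the smallest p per condition comparison, for YAP1, WWTR1, the TEADs, LATS2, CTGF, CYR61 and ANKRD1 and for the 6 with the widest line range; of other lists, the 1 with the smallest p. The genes and lists were chosen with earlier results of these data known.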

Additional observations from a re-analysis of the deposited data

Results flagged for a closer look

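Over the 4 lines, each gene's log2 levels per condition and its log2 ratios to control were searched for a line far from the other 3 by Dixon's ratio. Of 170 sets of 4 values 15 passed, where chance gives about 1 in 20, or 8.5. The sets are not independent, since a gene's levels enter once per condition and its ratios share the control libraries. The 15 beside 8.5 is therefore no test of an excess. Of the 15 that passed, 10 were levels that set a line apart. HCC1954 was the low line for AXL, at log2 CPM of 1.66 in control, 2.27 in SIVA-WT and 3.38 in SIVA-D160N with the other lines at 8.89 to 10.09. It was the high line for TEAD2, at 6.74 in SIVA-WT and 6.47 in SIVA-D160N with the others at 4.21 to 4.53, and the low line for CRIM1 in SIVA-D160N (6.63, others 8.07 to 8.18). OVCAR8 was the high line for TEAD4, at 6.58 in control and 6.36 in SIVA-D160N with the others at 4.79 to 5.25, and the low line for VGLL4 in control (4.09, others 5.92 to 6.08). MDA-MB-231 was the high line for AJUBA in SIVA-WT (8.24, others 6.92 to 7.09). The remaining 5 were ratios. For SIVA-D160N against control, ANKRD1 in SKOV3 was at 3.06 with the others at -0.14 to 0.29, TEAD2 in MDA-MB-231 was at 0.5 with the others at -0.29 to -0.23, and STK3 in HCC1954 was at 0.57 with the others at 0.17 to 0.21. For SIVA-WT against control, WWTR1 in HCC1954 was at 0.25 with the others at -0.05 to -0.01, and VGLL4 in MDA-MB-231 was at -0.5 with the others at -0.1 to -0.06.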

How the results depend on the processing

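No gene of the 34 was called in a condition comparison in edgeR, DESeq2 or limma-voom, with RLE size factors, with an adjusted p alone, without any 1 line (range 0 to 0), without the HCC1954 control library (an alternative chosen after seeing the data) or with no filter. Without the line as replicate block the count was 0 in each condition comparison as well. The line pairs and the interaction were not fitted without the block. With no filter, FRMD6 and NF2 had an adjusted p under 0.05 for SIVA-D160N against control (0.0163 and 0.0488) at the same log2 difference of 0.48, and the interaction called 1 gene, F3 (-1.2, adjusted p = 0.0266); more genes were tested there. Over all genes, SIVA-D160N against control called 1 gene in edgeR, 12 in DESeq2, 27 in limma-voom and 172 with no filter, SIVA-WT against control 0, 1, 1 and 10, and SIVA-D160N against SIVA-WT 0, 3, 1 and 59. With an adjusted p alone, the line pairs rose to 26 genes for MDA-MB-231 and HCC1954, 24 for MDA-MB-231 and OVCAR8, 25 for MDA-MB-231 and SKOV3, 24 for HCC1954 and OVCAR8, 20 for HCC1954 and SKOV3 and 25 for OVCAR8 and SKOV3. The share of all genes under this looser rule was not taken, and the shares given above belong to the stricter rule. Leaving out 1 library gave 14 to 15, 9 to 11, 8 to 9, 10 to 11, 8 to 8 and 9 to 11 genes for these pairs, and 0 to 0 for the interaction. Of 350 alternative values for 35 called line differences, 349 kept their call and direction, the exception being WWTR1 between MDA-MB-231 and HCC1954 without the HCC1954 control library. All 120 alternative values for the 12 condition differences named with full statistics kept their direction. They ran from -0.95 to 0.67, under the fold threshold, so none could be called whatever its adjusted p. With a prior count of 0.5, 2 genes passed 2-fold for SIVA-WT in SKOV3. Depth limits AMOT in MDA-MB-231 and ANKRD1 in SKOV3.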

Other observations

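Genes of the wider pathway also differed between lines, named here after their values were seen. PDCD10, a STRIPAK member, was at 50.4 to 62.2 CPM in MDA-MB-231, HCC1954 and SKOV3 and had 0 reads in all 3 OVCAR8 libraries, which allows up to 0.0822 CPM in a library. The TEAD cofactor gene VGLL1 was at 78.7, 70 and 48 CPM in the control, SIVA-WT and SIVA-D160N libraries of HCC1954 and had 0 reads in the other 9 libraries. Its relative VGLL3 was at 42.9 to 48.4 CPM in SKOV3, at 9.48 to 10.5 CPM in OVCAR8, at 2.32 to 3.44 CPM in MDA-MB-231 and at 0.048 to 0.255 CPM in HCC1954, where it rests on 2 to 11 reads. Of the polarity genes upstream of the pathway, CRB3 was at 12.7 to 14.5 CPM in HCC1954 and under 1 CPM elsewhere, and PATJ (listed as INADL) was at 83 to 110 CPM in HCC1954, 46.9 to 54 CPM in SKOV3 and 8.45 to 11.4 CPM in the other lines. The protocadherin ligand gene DCHS1 was at 16.7 to 19.6 CPM in OVCAR8 and at 0.0464 to 4.4 CPM elsewhere, the lowest being 2 reads in HCC1954.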
